A study of Mus musculus with 14 samples.

Results

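V3 interneurons sorted from mouse spinal cord were set against V1 and V2a interneurons sorted at the same stage, to find which genes set V3 cells apart from both. All 3 libraries came from wild-type embryos at E12.5, sorted for tdTomato from the Rosa26:LSL:tdTomato reporter. The driver was Sim1:cre for V3 and En1:cre for V1, and a Cre driver of V2a cells was used for V2a. A gene was called V3-enriched where the V3 signal was at least 10 and at least 2-fold above both other libraries, and V3-depleted where it was at least 2-fold below both and both others reached 10. Folds were taken on log2(signal + 1), where signal is the deposited value of read density for a gene, scaled between libraries and for transcript length. Of 23523 gene entries, 13869 had a signal of at least 10 in V3, V1 or V2a. Of these, 702 were V3-enriched (5.06%) and 270 were V3-depleted (1.95%).

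The series holds 13 mRNA libraries that were analysed here. Besides the 3 interneuron libraries there were 2 libraries of Hb9::gfp motoneurons with the background 218DKO and 6 of wild-type Hb9::gfp motoneurons, all GFP-sorted at E12.5. There were also 2 wild-type libraries from mouse embryonic stem cells at day 4 of differentiation: motoneuron progenitors sorted by tdTomato from Olig2:cre;Rosa26:LSL:tdTomato, and unsorted neural progenitors. A Cre reporter marks a cell for good once the driver has been active, so a tdTomato-positive cell need not express the driver gene at the time of sorting. The labels do not say how many embryos went into an interneuron library. With 1 library per interneuron type there is no spread between replicates, so no test was possible and every difference below compares 3 libraries, not 3 cell types with known error.

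V3 neurons are born in the p3 domain, the most ventral neuronal progenitor domain of the spinal cord, next to the floor plate. Their progenitors express the homeodomain factor Nkx2-2 under strong Sonic hedgehog signalling, and the neurons express the bHLH-PAS factor Sim1. They are excitatory, release glutamate, and most send an axon across the midline. V1 neurons, which express En1, are inhibitory, and V2a neurons are excitatory and project on their own side.

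The 3 libraries had 16.2 to 17.4 M approximate reads (M is the prefix mega), estimated from the smallest steps of the values, within 7.36 to 28.3 M over all 13. A signal of 1.73 in V3 was worth about 3 reads for a transcript of 2000 bases. Among the 6 wild-type motoneuron libraries, the median SD of a gene was 0.219 on the log2(signal + 1) scale, and 17.3% of 12830 genes spanned at least 2-fold from the lowest to the highest library. These 6 libraries are the largest group of 1 cell type here, and single genes near the 2-fold limit should be read against it. Over all measured genes the median difference on the log2 scale was -0.0005 for V3 minus V1 and -0.0039 for V3 minus V2a. Xist, of the female inactive X, had 764 in V3, 733 in V1 and 1197 in V2a, and the Y-linked Eif2s3y had 326, 450.0 and 254, so each library held both sexes.

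The V3 library carried its defining markers. Sim1 had a signal of 808 in V3, against 1.995 in V1 and 3.25 in V2a, and ran from 0.241 over a median of 1.10 to 4.13 in WT motoneurons. Nkx2-2, the p3 progenitor factor, had 2858 in V3, 2.75 in V1 and 14.3 in V2a, with 0.680, 3.12 and 15.8 as the lowest, median and highest WT motoneuron values. V3 was the highest of the 13 libraries for both, and Nkx2-2 also had 298 in the sorted stem cell progenitors and 20.4 in the unsorted ones. Robo3, the Robo family receptor that commissural axons need to cross the midline, had 6694 in V3, 53.02 in V1 and 143 in V2a, and 18.9, 48.2 and 176 in WT motoneurons. Olig3, a bHLH factor, had 2618 in V3, 4.37 in V1 and 243 in V2a, against 8.69, 14.3 and 41.9 in WT motoneurons. Uncx, a homeodomain factor of V3 cells, had 2142 in V3, 12.9 in V1 and 42.0 in V2a, against 5.05, 17.2 and 59.3 in WT motoneurons. For these 5 genes the V3 value lay above every other library of the 13. Olig3 was the marker with the highest level in V2a. Neurog3, a proneural factor known from p3 progenitors, reached only 14.2 in V3, with 0.733 in V1 and 6.35 in V2a. All 6 genes of the V3 list with a signal of at least 10 were V3-enriched, which the choice of list makes likely, and Nkx2-9 stayed below 10 in all 3.

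Most markers of the other classes named here were low in V3. En1 had 4.05 in V3, 851 in V1 and 7.23 in V2a. Shox2, a V2a factor, had 7.93 in V3, 6.37 in V1 and 3975 in V2a. Lhx3, shared by V2a neurons and motoneurons, had 8.86 in V3, 9.20 in V1 and 3293 in V2a. Lhx4 stood apart among V2a genes, with 158 in V3, against 3.05 in V1 and 2340 in V2a. The V2b factor Gata3 had 6.80 in V3, 4.21 in V1 and 40.2 in V2a, and the V0 factor Evx1 had 0.800, 36.1 and 2.64. Of floor plate and ventral midline genes, Foxa2 had 4.87 in V3, 0 in V1 and 2.55 in V2a. Of the 5 with a signal of at least 10, 1 (20%) was V3-enriched (Nkx6-1) and none V3-depleted, against 5.06% and 1.95% of all measured genes. V3 was the highest of the 3 libraries for 3 of them, and the median difference was 0.85. Ntn1 had 362 in V3, 221 in V1 and 183 in V2a, and Shh had 14.7, 6.77 and 6.92. Neither was called. Among V0 and dorsal genes, 2 of 12 (16.7%) were V3-enriched and 1 (8.33%) V3-depleted, against 5.06% and 1.95% of all measured genes. Both V3-enriched ones were at low levels: Gbx1 had 30.9 in V3, 8.55 in V1 and 7.48 in V2a, and Ptf1a, a factor of dorsal inhibitory neurons, had 26.7, 2.25 and 2.88. In bulk libraries such as these, fewer cells of a type and less RNA per cell cannot be told apart.

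**Figure D1:**
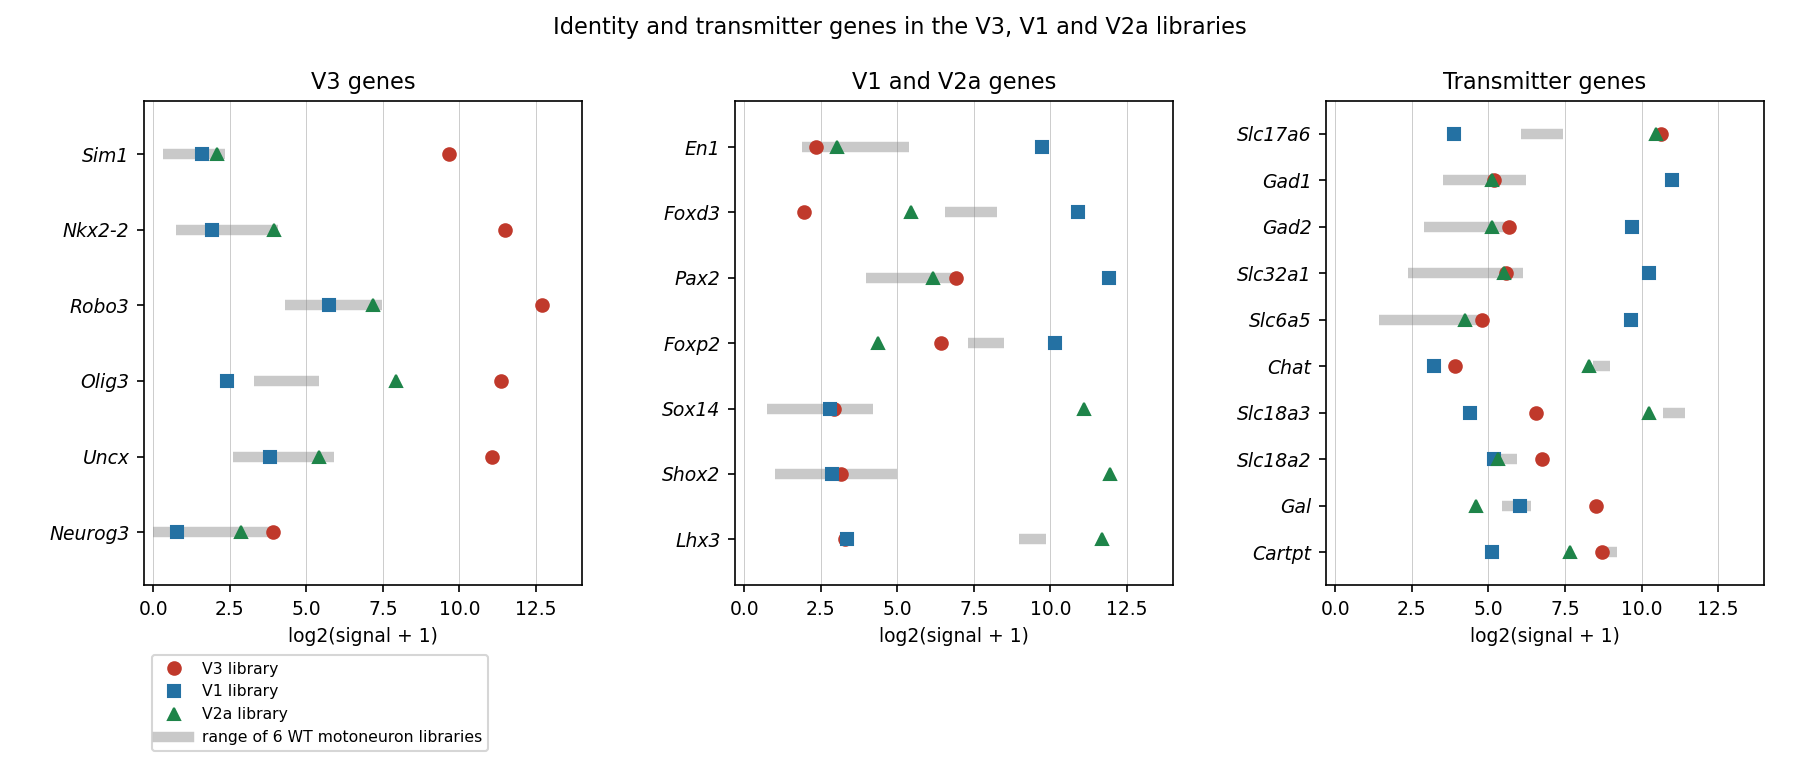
Level of identity genes and transmitter genes as log2(signal + 1), one row per gene. Red circles are the V3 library, blue squares V1, green triangles V2a, and grey bars span the 6 WT motoneuron libraries. Sim1, Nkx2-2, Robo3, Olig3 and Uncx stand highest in V3, and Slc17a6 is at 1581 in V3 and 1427 in V2a against 13.6 in V1.

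Sequence upstream of the most V3-enriched genes was searched for 3 motifs, on both strands, in the 250 bases before the RefSeq start (GRCm38.p6): TNAAGTG for NKX2 factors, TACGTG for SIM factors and CATATG for OLIG factors. Of the 20 V3-enriched genes with the largest differences, 16 had a promoter entry and 2 held a match. The sites are shown because they lie beside Nkx2-2 itself and beside the start of Gm2694, the long noncoding RNA next to Cbln1. Capitals mark the match, which begins 197 bases before the start for Nkx2-2 (chr2:147186583-147186609, minus strand). For Gm2694 a palindrome places a match on each strand, beginning 16 and 12 bases before the start, with 2 shared bases (chr8:87473090-87473115, plus strand). Each start is that of the promoter table, and both sites lie inside the wider RefSeq span of their gene.
Nkx2-2: tgtcttcatcCACTTGActcccaagac
Gm2694, first match: tggttaagggCACGTAcgtgcggggc
Gm2694, second match: taagggcacgTACGTGcggggc
The NKX2 motif was in 10.6% of 498 V3-enriched genes with a promoter entry, 11.3% of 186 V3-depleted genes, 9.01% of 10243 genes with a signal of at least 10, and 11.4% of all 27025 promoter entries. The SIM motif was in 3.82% of V3-enriched genes and 3.84% of genes at 10 or more. The OLIG motif was in 2.01% of V3-enriched genes and 1.94% of genes at 10 or more. The shares were thus close to those of all measured genes, and a match is a run of letters, not a shown binding site.

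Comparison of the 3 libraries by pairs placed V3 farthest from V1. At least 2-fold apart were 17.1% of genes between V3 and V1, with 1426 higher and 939 lower in V3. Between V3 and V2a the share was 10.3%, with 946 higher and 478 lower in V3. Between V1 and V2a it was 11.0%. With V1 in the place of V3, 3.44% of genes were enriched and 4.02% depleted, and with V2a 1.18% were enriched and 1.06% depleted. V3 thus had the largest share of enriched genes of the 3 libraries, with more enriched than depleted genes, and V1 had the largest share of depleted genes.

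**Figure D2:**
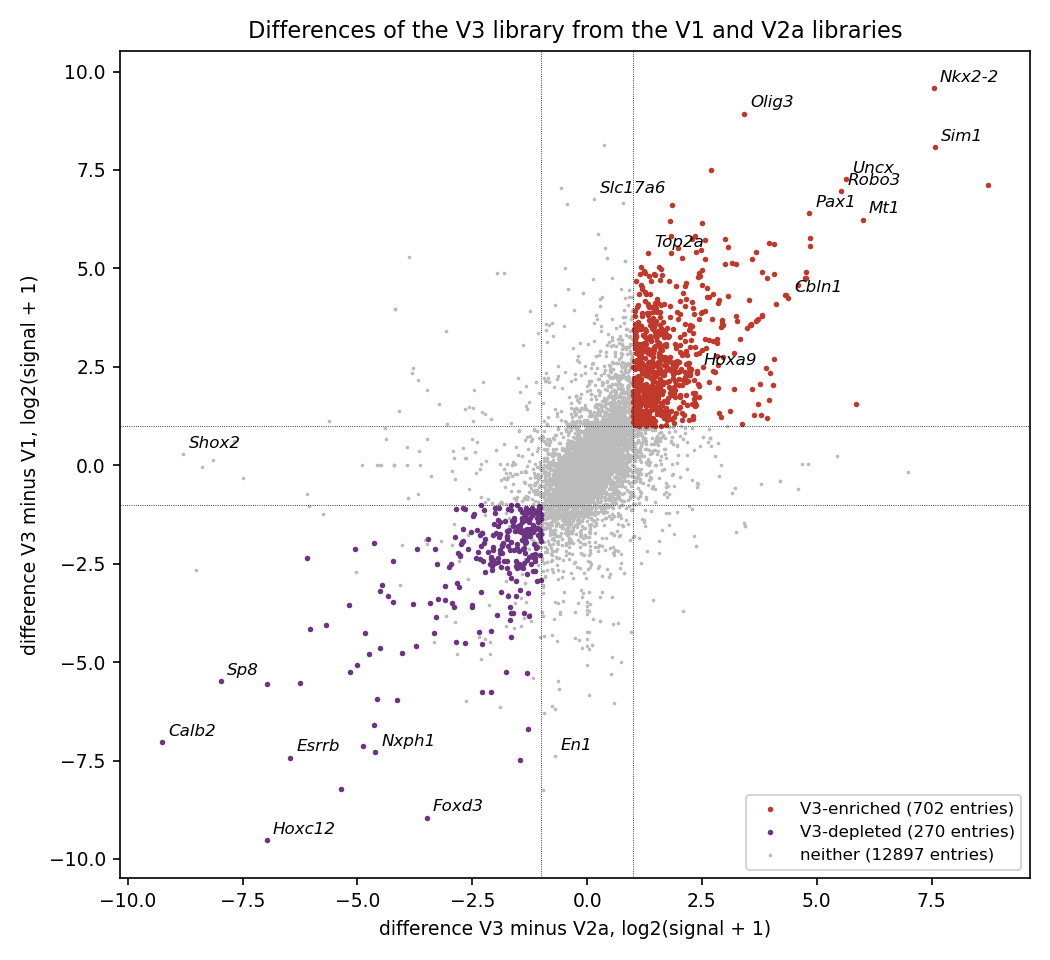
Difference of V3 from V1 (vertical axis) against its difference from V2a (horizontal axis), both on log2(signal + 1), for gene entries with a signal of at least 10 in V3, V1 or V2a. Red points are the 702 V3-enriched entries, purple points the 270 V3-depleted ones, and dotted lines mark 2-fold; Nkx2-2 and Sim1 lie far toward the upper right, and Calb2 and Hoxc12 toward the lower left.

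Many V3-enriched genes also differed between V2a and V1. Of the 702, 290 (41.3%) were also at least 2-fold higher in V2a than in V1, a pattern seen in 6.52% of all measured genes. V3 exceeded all 6 WT motoneuron libraries for 534 (76.1%, against 32.5% of all measured genes), lay within their range for 93 and lay below all of them for 75. These genes were picked for a high V3 value, so a higher share than over all measured genes follows in part from the choice. The unsorted neural progenitors of the stem cell culture were above V3 for 410 (58.4%, against 47.9% of all measured genes). V3 was at least 2-fold above each of the 12 other libraries for 105 genes. By level these were led by Robo3, Cdkn1c, Dlk1, Igfbpl1 and Cbln1. Just inside the 2-fold limit stood Id1, with 143 in V3, 54.4 in V1 and 70.9 in V2a, and Ebpl, with 85.8, 42.4 and 34.5. Just outside it stood Dera, with 132 in V3, 38.1 in V1 and 65.6 in V2a, and Kctd4, with 55.7, 17.2 and 27.4.

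Cbln1 and Cntn2 were among the 20 V3-enriched genes with the largest differences, and C1ql1 and Rgma were also called. Cbln1, a secreted synapse organiser of the C1q family, had 3346 in V3, 175 in V1 and 161 in V2a, and from 793 over 860 to 990 in WT motoneurons. Its noncoding neighbour Gm2694 had 3070 in V3, 101 in V1 and 111 in V2a. C1ql1, another secreted C1q-like protein, had 344 in V3, 5.44 in V1 and 41.8 in V2a. Cntn2 (TAG-1), a contactin found on commissural axons, had 1602 in V3, 172 in V1 and 159 in V2a, and its WT motoneuron values were 434 at the lowest, 516 at the median and 629 at the highest. For Cbln1, Cntn2 and C1ql1, V3 was above all other libraries and motoneurons lay above both V1 and V2a. Rgma, a GPI-anchored guidance molecule, had 3058 in V3, 850 in V1 and 874 in V2a.

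Other leading genes were not neuronal identity genes. Mt1, a metal-binding metallothionein, had 703 in V3, 8.33 in V1 and 10.02 in V2a, and 7378 and 13422 in the sorted and unsorted stem cell progenitors. S100a10, the partner of annexin A2, had 1949 in V3, 39.9 in V1 and 66.8 in V2a, and 3234 to 5185 in WT motoneurons, so V3 was not the highest library. Nrgn (neurogranin, a calmodulin-binding protein), a neighbour of Robo3 on chromosome 9, had 197 in V3, 2.62 in V1 and 5.88 in V2a. The transcript 6430503K07Rik had 426 in V3, 2.05 in V1 and 0 in V2a. It overlaps the span of Nkx2-2 in RefSeq, and as no source used here says that reads were counted by strand, reads of the pair cannot be told apart. Pdlim5, a cytoskeletal adaptor, had 320.1 in V3, 22.1 in V1 and 33.1 in V2a.

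V3 and V2a were alike in the main transmitter gene of excitatory neurons. Slc17a6, which encodes the vesicular glutamate transporter VGLUT2, had 1581 in V3, 13.6 in V1 and 1427 in V2a. It was therefore not called, and none of the 7 glutamatergic genes was. The inhibitory genes were high in V1 and alike in V3 and V2a: Gad1, the GABA-synthesising enzyme, had 34.9 in V3, 2058 in V1 and 33.6 in V2a. Slc32a1, the vesicular GABA and glycine transporter, had 46.3 in V3, 1206 in V1 and 44.9 in V2a. None of 10 inhibitory genes was called, with a median difference of -1.32 from the mean of V1 and V2a, against -0.0046 over all measured genes. With 5.06% of all measured genes V3-enriched and 1.95% V3-depleted, lists of 7 and 10 give few calls, so these counts alone show little. Chat, the acetylcholine-synthesising enzyme, had 13.9 in V3, 8.44 in V1 and 309 in V2a. Of 6 cholinergic and monoamine genes 2 (33.3%) were V3-enriched and 1 (16.7%) V3-depleted, against 5.06% and 1.95% of all measured genes. Slc18a2, the vesicular monoamine transporter, had 106 in V3, 35.02 in V1 and 39.1 in V2a and was V3-enriched. Ddc, the other V3-enriched one, had 27.6 in V3, 2.31 in V1 and 11.1 in V2a. Th, the rate-limiting enzyme of dopamine synthesis, had 7.86, 25.7 and 23.5 and was V3-depleted.

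Of 19 neuropeptide genes and secreted partners, 3 (15.8%) were V3-enriched and 3 (15.8%) V3-depleted, against 5.06% and 1.95% of all measured genes. Gal, which encodes galanin, had 362 in V3, 64.6 in V1 and 23.3 in V2a. Cartpt, which encodes the CART peptides, had 417 in V3, 33.8 in V1 and 202 in V2a, and was just past the limit against V2a (1.05 on the log2 scale). Scg2, a granin of secretory vesicles, had 791 in V3, 334 in V1 and 343 in V2a. In the other direction Sst, which encodes somatostatin, had 73.0 in V3, 2811 in V1 and 252 in V2a. Nxph1, an α-neurexin ligand, had 14.2 in V3, 2375 in V1 and 371 in V2a. Grp, which encodes gastrin-releasing peptide, had 3.86 in V3, 20.2 in V1 and 61.9 in V2a.

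Guidance receptors differed from one to the next between the libraries, with a list median near that of all measured genes. Of 26 Robo, Slit, netrin and DCC genes, 2 (7.69%) were V3-enriched and 3 (11.5%) V3-depleted, against 5.06% and 1.95% of all measured genes, with a median difference of 0.02. Robo3 was by far the highest V3 value of the list. Robo1, a Slit receptor that repels axons from the midline, had 1276 in V3, 694 in V1 and 1120 in V2a and was not called. Robo2, its relative, had 336 in V3, 900.4 in V1 and 882 in V2a and was V3-depleted. Robo4, known from endothelium, had 56.8 in V3, 0.306 in V1 and 9.42 in V2a. The netrin receptor Dcc had 1124 in V3, 707 in V1 and 1042 in V2a and was not called. Unc5d, of the repulsive netrin receptor family, had 39.6 in V3, 206 in V1 and 215 in V2a, and Nell1, a relative of the secreted Robo3 ligand NELL2, had 34.8, 139.7 and 169.6. Slit1 had 1192 in V3, 1138 in V1 and 907 in V2a, close in all 3.

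Among Eph receptors, Epha8 had 173 in V3, 28.5 in V1 and 23.3 in V2a, and the low-abundance Ephb4 had 56.3, 2.34 and 17.0. Ephb1 had 116 in V3, 572 in V1 and 801 in V2a, and Epha4, which keeps some spinal axons on their own side, had 125, 484 and 317. Of 20 Eph and ephrin genes 3 (15.0%) were V3-enriched and 3 (15.0%) V3-depleted, and of 29 semaphorin, plexin and neuropilin genes 2 (6.90%) and 2 (6.90%), against 5.06% and 1.95% of all measured genes. The secreted repellent Sema3a had 59.9 in V3, 399 in V1 and 285 in V2a, and Sema3c had 35.3, 159 and 219. Among 19 genes of midline crossing and planar polarity, Cntn2 and Boc, a hedgehog co-receptor for commissural axons, were V3-enriched. Boc had 149.9 in V3, 29.6 in V1 and 61.8 in V2a. Chl1, a close homologue of L1, had 358 in V3, 1594 in V1 and 1482 in V2a, while L1cam itself had 2898, 1429 and 2249 and was not called. The polarity receptors Celsr3 (852 in V3, 807 in V1, 854 in V2a) and Fzd3 (527, 477 and 489.7) were nearly level.

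**Figure D3:**
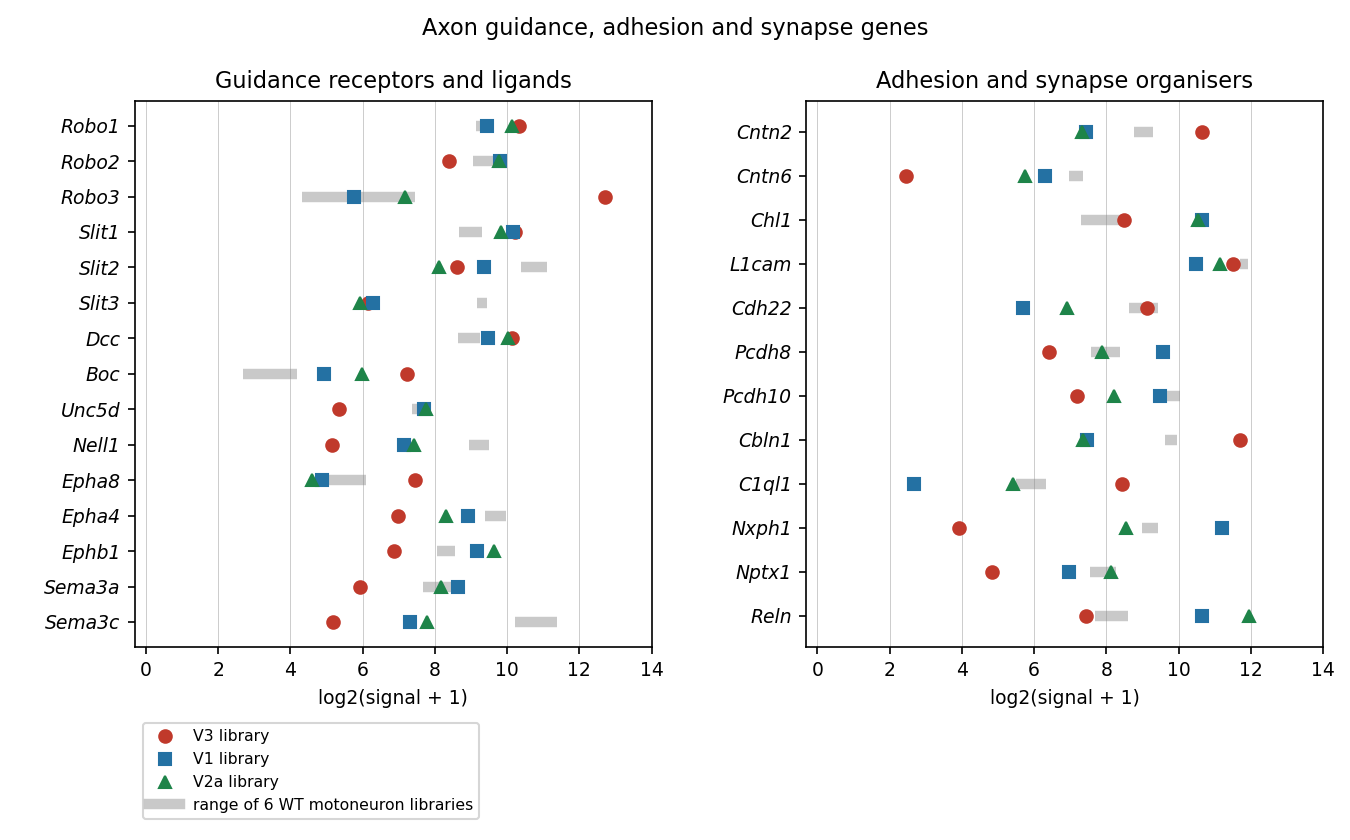
Level of guidance genes (left) and adhesion and synapse genes (right) as log2(signal + 1). Red circles are the V3 library, blue squares V1, green triangles V2a, and grey bars span the 6 WT motoneuron libraries. Robo3 (6694), Cbln1 (3346) and Cntn2 (1602) stand highest in V3, while Robo2, Unc5d, Ephb1, Chl1 and Nxph1 are lowest there among the 3 interneuron libraries.

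Protocadherins and potassium channels had more V3-depleted than V3-enriched members. None of 11 non-clustered protocadherins was V3-enriched and 3 (27.3%) were V3-depleted, against 5.06% and 1.95% of all measured genes. Their median difference was -0.67. Pcdh8 had 84.6 in V3, 764 in V1 and 235 in V2a. Of 18 cadherins, 2 (11.1%) were V3-enriched and 1 (5.56%) V3-depleted. Cdh22 was V3-enriched, with 562 in V3, 51.0 in V1 and 121 in V2a, and so was Cdh15, a muscle cadherin, with 20.6, 1.59 and 8.40. Cdh23 was V3-depleted, with 2.90 in V3, 78.7 in V1 and 11.4 in V2a. Of 54 potassium channel genes 1 (1.85%) was V3-enriched and 6 (11.1%) were V3-depleted, with a median of -0.35. The median difference was -0.72 from V1 and only -0.13 from V2a. Kcnk9, a potassium leak channel, had 3.81 in V3, 496 in V1 and 10.8 in V2a. Kcnh7, of the ERG family, was the V3-enriched one, with 90.3 in V3, 39.2 in V1 and 24.9 in V2a.

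Of 34 sodium, calcium and HCN channel genes, 3 (8.82%) were V3-enriched and 3 (8.82%) V3-depleted, against 5.06% and 1.95% of all measured genes. Scn9a, the sodium channel Nav1.7, had 139 in V3, 39.0 in V1 and 44.1 in V2a. Cacng5, an AMPA receptor auxiliary subunit, had 116 in V3, 5.09 in V1 and 17.7 in V2a. Its relative Cacng3 had 3.77 in V3, 38.5 in V1 and 104 in V2a. Of 23 glutamate receptor genes 1 (4.35%) was V3-enriched and 2 (8.70%) were V3-depleted. Grm8, a presynaptic metabotropic receptor, was the V3-enriched one, with 75.7 in V3, 10.7 in V1 and 3.54 in V2a. The 2 V3-depleted ones were Grm5, with 10.9 in V3, 117 in V1 and 38.4 in V2a, and Grm3, with 20.5, 47.2 and 48.8. Of 15 GABA and glycine receptor genes 1 (6.67%) was V3-enriched (Gabrq, 13.2 in V3, 2.26 in V1, 5.43 in V2a) and 3 (20%) were V3-depleted. Gabrb2, a GABA-A subunit, was the most abundant of these 3, with 62.5 in V3, 195 in V1 and 149.6 in V2a. None of 10 acetylcholine receptor genes was called, which is near the shares of all measured genes for so short a list.

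Calb2, Hoxc12 and Esrrb had the largest differences of the V3-depleted genes. Calb2 (calretinin, a calcium-binding protein) was listed at 0 in V3, with 130.1 in V1 and 613 in V2a, and Calb1 (calbindin) had 0.401 in V3, 135 in V1 and 34.1 in V2a. Pcp4, a calmodulin regulator, had 21.5 in V3, 375 in V1 and 1164 in V2a. Esrrb, a nuclear receptor of V1 subsets, had 1.37 in V3, 407 in V1 and 209 in V2a, and Nr5a2, another nuclear receptor, had 2.22, 147 and 244. The zinc finger factor Sp8 had 2.57 in V3, 159 in V1 and 900.2 in V2a. Mab21l2 had 74.9 in V3, 4767 in V1 and 1328 in V2a, and the homeodomain factor Gbx2 had 82.2, 2270 and 1361. Prdm8 had 70.4 in V3, 820.4 in V1 and 990.3 in V2a, and its partner Bhlhe22 had 139.6, 1108 and 995. Reln, which encodes the secreted protein reelin, had 174 in V3, 1593 in V1 and 3983 in V2a. Of 21 V1 genes, 9 (42.9%) were V3-depleted and none was V3-enriched, against 1.95% and 5.06% of all measured genes. Their median difference was -2.90. The list was chosen for V1, so its low level in V3 beside V1 follows from the choice. For Sp8, Nr5a2 and Prdm8, however, V2a was above V1, most of all for Sp8, and for Bhlhe22 V2a was nearly as high as V1. Neurod6 (31.0 in V3, 1234 in V1, 78.2 in V2a) and Myt1l (269, 1503 and 698) joined Mab21l2 as the V3-depleted members of 26 temporal and birth-date factors. They made up 11.5% of that list, against 1.95% of all measured genes, and none of the list was V3-enriched, against 5.06%. Just inside the limit stood Ryr2, with 16.6 in V3, 131 in V1 and 34.2 in V2a, and Dusp26, with 487, 974 and 1399. Just outside stood Dlk2, with 112 in V3, 327 in V1 and 225 in V2a.

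Some leading V3-depleted entries rest on short or repeated transcripts. Hist1h2ai was listed at 0 in V3, with 46.0 in V1 and 124 in V2a, and it has near-identical histone copies. Gm3500, at 0 in V3, 139.5 in V1 and 28.5 in V2a, has copies with the same symbol, and over all of them the difference from the mean of V1 and V2a was -0.69. The small nucleolar RNA AF357426 was at 0 in V3, 16.8 in V1 and 64.8 in V2a. V3 was below all 6 WT motoneuron libraries for 208 of the 270 V3-depleted genes (77.0%, against 30.7% of all measured genes), within their range for 56 and above them for 6. As these genes were picked for a low V3 value, the higher share follows in part from the choice.

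Hox genes mark position along the body axis. Of 37 Hox genes, 4 (10.8%) were V3-enriched and 6 (16.2%) V3-depleted, against 5.06% and 1.95% of all measured genes. Their median difference was -0.21. Hoxa9 had 3338 in V3, 636 in V1 and 635 in V2a, with WT motoneurons at 253, 368 and 386 as lowest, median and highest. Hoxa10 had 2415 in V3, 886 in V1 and 598 in V2a, and Hoxa7 had 788, 330 and 336. V3 was the highest of the 13 libraries for these 3. Of the anterior genes, Hoxb1 was V3-enriched at a low level, with 38.2 in V3, 8.69 in V1 and 17.8 in V2a, and Hoxa2 was V3-depleted, with 198 in V3, 472 in V1 and 505 in V2a. The far 5′ genes were not detected in V3: Hoxc12 was listed at 0 in V3, 735 in V1 and 125 in V2a, and Hoxc13 at 0, 295 and 39.7. Hoxd12 was at 0 in V3, 60.6 in V1 and 22.7 in V2a, and Hoxb13, not called because V2a was under 10, was at 0, 21.5 and 9.10. Hoxc11 had 86.7 in V3, 461 in V1 and 215 in V2a, and Hoxd11 had 65.8, 433 and 149. Hoxa11 was instead highest in V3, with 189 in V3, 161 in V1 and 93.5 in V2a, and was not called. Hoxc10 was close in all 3, with 1499 in V3, 2053 in V1 and 1508 in V2a. Hoxc12 also spread from 0 over a median of 113 to 484 within the 6 WT motoneuron libraries, so libraries of 1 cell type differed in this gene. The length of cord taken for each library is not given in the labels, and its part in the Hox values was not tested.

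**Figure D4:**
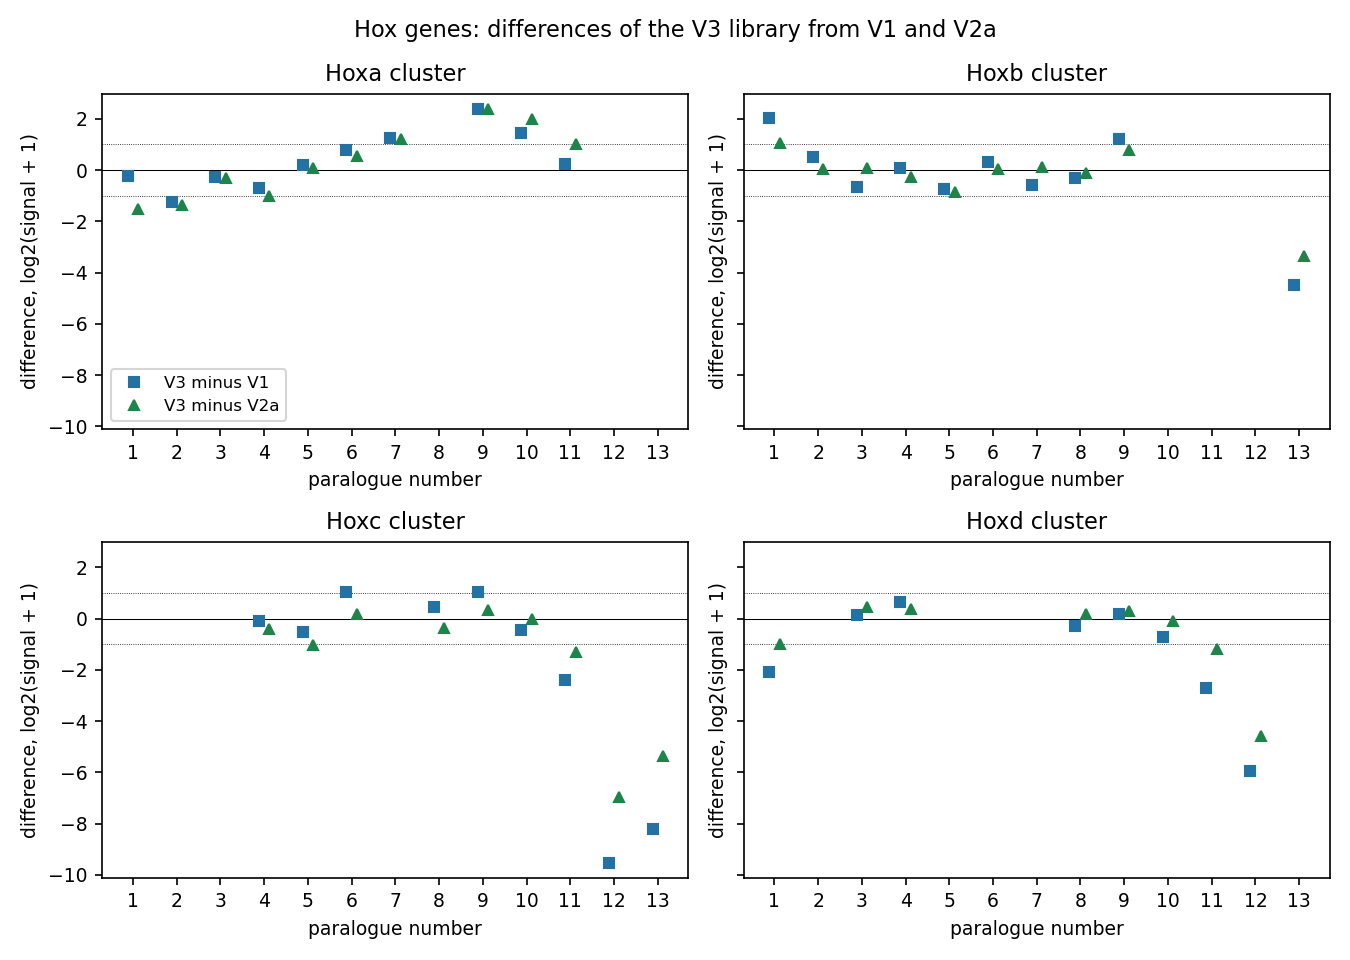
Difference of V3 from V1 (blue squares) and from V2a (green triangles) on log2(signal + 1) for each Hox gene with a signal of at least 10, by paralogue number in the 4 clusters. Dotted lines mark 2-fold; Hoxa7, Hoxa9 and Hoxa10 lie above the upper line in both comparisons and Hoxc11 to Hoxc13, Hoxd11 and Hoxd12 below the lower one.

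Some hedgehog pathway genes were higher in V3 than in V1 and V2a. Gli1, a transcription factor and target of the pathway, had 47.4 in V3, 2.77 in V1 and 5.34 in V2a. Gli3 had 71.4 in V3, 20.9 in V1 and 30.2 in V2a, and Gli2 had 47.5, 10.1 and 24.9 and was not called. Of 13 genes 3 (23.1%) were V3-enriched and none V3-depleted, against 5.06% and 1.95% of all measured genes. V3 was the highest of the 3 for 11. The median difference was 0.86, with 1.01 from V1 and 0.45 from V2a. The receptor and target Ptch1 was close, with 381 in V3, 303 in V1 and 323 in V2a. Nkx6-1, a ventral progenitor factor that lasts in some neurons, had 549.9 in V3, 8.80 in V1 and 155 in V2a. Among 17 Notch genes 4 (23.5%) were V3-enriched and none V3-depleted, with a median of 0.82 (1.02 from V1 and 0.47 from V2a). Hes1, a Notch target of progenitors, had 181 in V3, 15.6 in V1 and 79.3 in V2a, and Notch3 had 117, 26.7 and 52.8. In the sorted and unsorted stem cell progenitors Gli1 had 812 and 258, and Hes1 had 1221 and 463. Both genes rose from V1 over V2a to V3, the order of the cell cycle and mesenchyme lists below. The part of such cells in these values was not tested.

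Genes of cycling cells and of mesenchyme were higher in V3 than in both other libraries, and they are set apart here from the neuronal genes. Of 27 cell cycle genes 16 (59.3%) were V3-enriched, against 5.06% of all measured genes. V3 was the highest of the 3 for all 27, and the median difference was 1.94. Mki67, a marker of cycling cells, had 193 in V3, 5.15 in V1 and 63.0 in V2a. Top2a, the topoisomerase of dividing cells, had 413 in V3, 8.87 in V1 and 163 in V2a. The list summed to 6121 in V3, 1999 in V1 and 3466 in V2a, with WT motoneurons from 1636 to 2022 and 58297 and 38851 in the sorted and unsorted stem cell progenitors. Of 19 neural progenitor genes 3 (15.8%) were V3-enriched (Hes1, Nkx6-1 and Sox9), 1 (5.26%) was V3-depleted (Neurog2) and the median was 1.01. Sox2, a progenitor factor, had 277 in V3, 47.8 in V1 and 157 in V2a, and was not called because V2a was within 2-fold.

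Of 21 mesenchyme and meninges genes 17 (81.0%) were V3-enriched, against 5.06% of all measured genes, with a median difference of 3.23. Col3a1, a collagen of connective tissue, had 312 in V3, 2.23 in V1 and 85.5 in V2a. Twist1, a mesenchymal bHLH factor, had 82.6 in V3, 0.692 in V1 and 3.998 in V2a. The sclerotome factors Pax1 (156 in V3, 0.856 in V1, 4.53 in V2a) and Pax9 (34.0, 0 and 2.95), the meningeal factors Foxc1 (38.6, 0.283 and 5.99) and Foxc2 (26.2, 0 and 0.797), and the matrix protein Lum (59.9, 1.09 and 2.62) followed the same order. The list summed to 1762 in V3, 96.2 in V1 and 435 in V2a, against 59.1 to 397 in WT motoneurons. Of 9 muscle genes 7 (77.8%) were V3-enriched. Myog, a myogenic factor, had 49.0 in V3, 0 in V1 and 2.20 in V2a, and Myod1 had 17.4, 0 and 0.586. Pax3 and Pax7 on this list are also genes of dorsal neural progenitors. Pdgfra and Cspg4 were V3-enriched on the glial list, and Pdgfra is on the mesenchyme list too.

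Blood and vessel genes did not follow that order. The blood list summed to 1241 in V3, 246 in V1 and 16465 in V2a, and none of its 10 genes was V3-enriched. The endothelial list summed to 131 in V3, 13.3 in V1 and 177 in V2a, and none was called. For microglia, C1qb and Tyrobp were V3-enriched on few reads, with 10.8 and 12.2 in V3, while Csf1r had 6.23 in V3, 0.291 in V1 and 5.33 in V2a. None of 12 cell death genes was called, and 1 of 13 dissociation stress genes was V3-depleted. With 5.06% of all measured genes enriched and 1.95% depleted, lists this short give few calls, so these counts do not show whether V3 differed. The stress list had a median difference of -0.81 from V1 and 0.19 from V2a. Of the 3 interneuron libraries V1 had the lowest cell cycle, mesenchyme, muscle and vessel sums, and V3 had the highest of the first 3. Of the 702 V3-enriched genes, 42 (5.98%) stood on these lists of cycling and other cells, against 0.577% of all measured genes. Without them 660 remained, and leaving out every gene at least 2-fold higher in V2a than in V1 kept 412. Sim1, Cbln1, Cntn2 and Hoxa9 were among these, while Nkx2-2, Robo3, Olig3 and Uncx, each more than 2-fold higher in V2a than in V1, were not. The part of cycling and mesenchymal cells in the other V3-enriched genes was not tested.

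**Figure D5:**
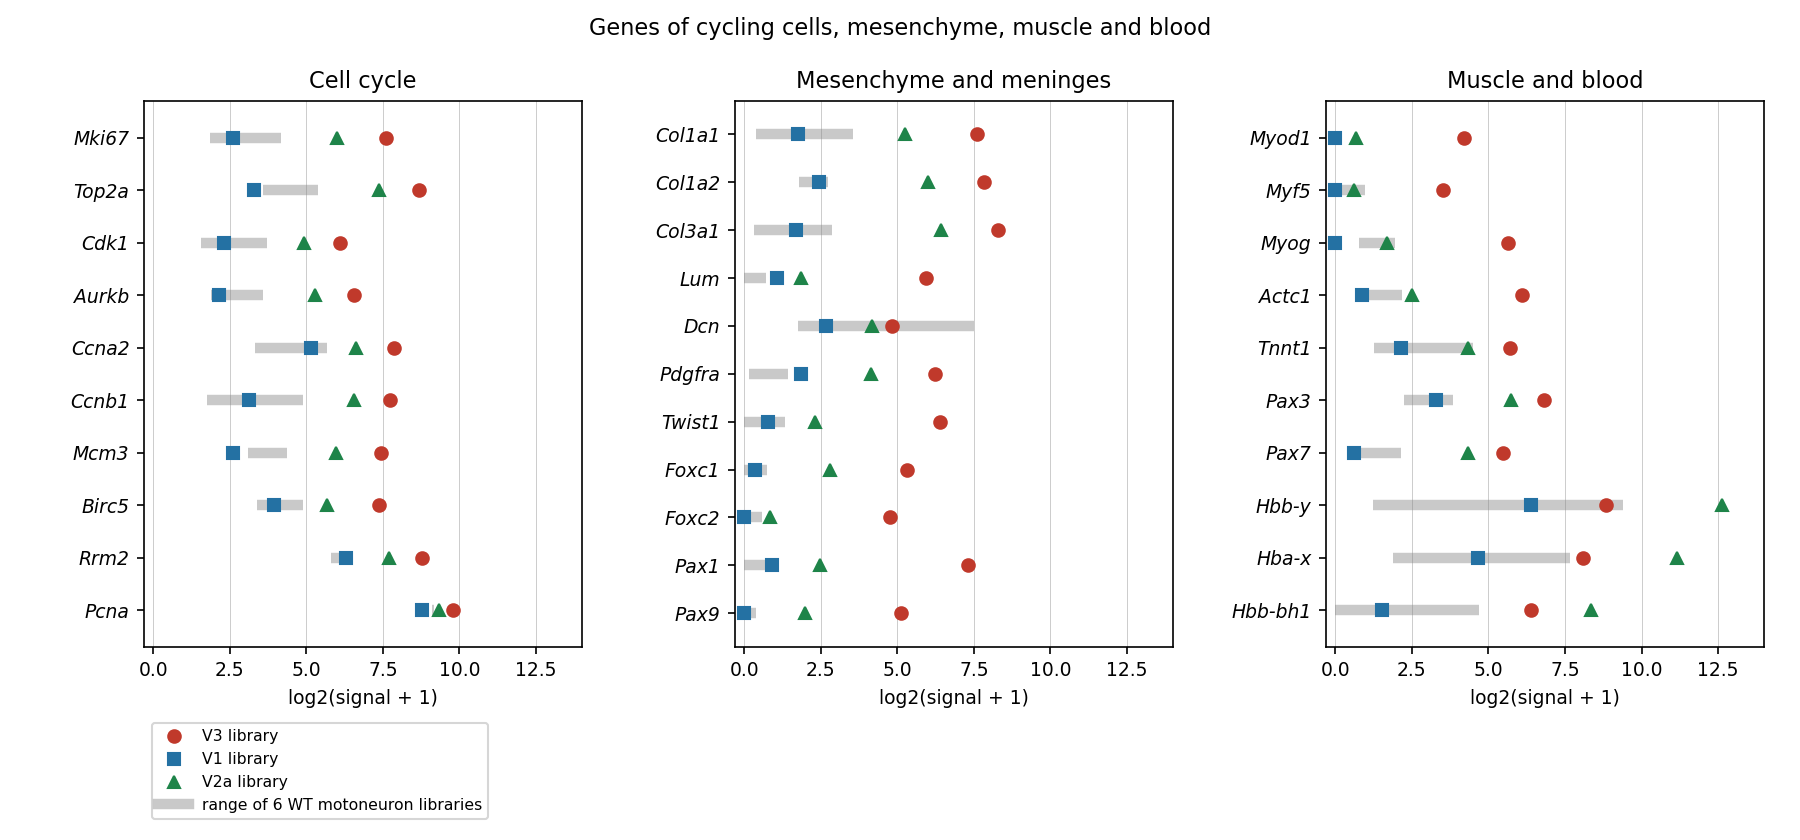
Level of genes of cycling cells, mesenchyme and meninges, and muscle and blood as log2(signal + 1). Red circles are the V3 library, blue squares V1, green triangles V2a, and grey bars span the 6 WT motoneuron libraries. Cell cycle and mesenchyme genes run from V1 over V2a to V3, the highest, while the globins Hbb-y, Hba-x and Hbb-bh1 are highest in V2a.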

How the data were processed

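mRNA was sequenced from sorted spinal neurons and stem cell progenitors. Per the file headers, the deposited gene and transcript tables give 1 signal value per library. The authors had scaled this signal between libraries and, as the steps of low values show, by transcript length. The labels and headers give no formula for it. The submitters' processing notes name DESeq, bedtools, mm9 and mm10 without their roles, and no aligner or annotation is named. All columns mapped to a labelled sample (0 were left aside). Floor plate cells were not analysed here.

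Values were compared as log2(signal + 1) with Python 3.11.15, pandas 2.3.3 and numpy 2.4.6, and plotted with matplotlib 3.10.9. Approximate reads come from these steps and the lengths of GENCODE M21 transcripts, joined by RefSeq accession: 76.9 to 78.5% of the values lay within 0.1 of a whole read, against 20% by chance, so counts were not recovered and no count model was fitted. The calling scripts were checked on simulated data. Genes were named by rule: the V3 markers, the 20 called genes in each direction with the largest smaller difference among those at 50 or more, and called members of the gene lists by size; uncalled list members are named for contrast. Rgma, Igfbpl1, Reln and the added lists' genes fall outside this rule and were chosen after their values were seen. Members and lists were chosen with earlier results of these data known, and 4 lists were added after values had been seen. A difference on log2(signal + 1) understates the change of low genes. A marker gene is not reported here.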

Additional observations from a re-analysis of the deposited data

Results flagged for a closer look

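Within the 6 WT motoneuron libraries, the highest or lowest value was checked for its gap to the nearest other library, for 19 items: single genes named in the report and summed gene lists. In 5 of them the gap of WT motoneuron library 1 above the other 5 libraries passed the limit, taken on signal and not on the log2 scale. The limit is set to flag about 1 in 20 where values are normally spread, which was not checked here. The items share the same libraries and are not independent, so the number of flags was not weighed against chance. Robo3 was 176 there, Olig3 was 41.9 and Uncx was 59.3, all far below their V3 levels of 6694, 2618 and 2142. The blood list summed to 1778 in the same library and the microglia list to 229. These flags concern the motoneuron range set beside V3 and touch no V3, V1 or V2a value. Without that library the V3 values of these genes would lie still farther above the motoneurons.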

How the results depend on the processing

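The 702 V3-enriched and 270 V3-depleted genes were recounted under other settings. With no minimum signal there were 1073 enriched and 539 depleted genes, with a 1.5-fold limit 1316 and 571, and with a 4-fold limit 147 and 76. With V3 set against the mean of V1 and V2a, there were 1199 and 649. Without genes at least 2-fold higher in V2a than in V1, an alternative chosen after seeing the data, 412 enriched and 245 depleted genes were left. Requiring 20 approximate reads, also chosen after seeing the data, left 634 and 242. All other settings (pseudocount, minimum of 5 or 20, scaling, transcript sums, other cell lists left out) gave 568 to 814 enriched and 213 to 330 depleted genes. No list median or named gene changed sign. With a pseudocount of 5, 7 of 39 list medians and 30 of 40 named genes moved by more than 0.219, the median SD of WT motoneurons, as a larger pseudocount pulls low values together. No paired analysis was possible because each interneuron type has 1 library. At this depth 53 of 687 V3-enriched genes with a read estimate rested on under 20 reads, so a signal near 10 is uncertain. Tyrobp and C1qb are among the low ones.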

Other observations

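The gene sets below were put together after their values had been seen, and they carry no independent weight. Of 39 imprinted genes with a signal of at least 10, 11 were V3-enriched and none V3-depleted (28.2%, against 5.06% of all measured genes), with a median difference of 0.30. Igf2, a fetal growth factor, had 1570 in V3, 7.64 in V1 and 240 in V2a, and its neighbour H19 had 3147, 43.6 and 551. Dlk1, a Notch-like membrane protein, had 3683 in V3, 129 in V1 and 1185 in V2a, and Cdkn1c, a cell cycle inhibitor, had 4899, 1309 and 2230. Grb10, Mest, Asb4, Zim1, Slc38a4, Ddc and Ins2 were the other 7, with Ins2 on about 9.5 reads. Meg3 and Peg3 were nearly level, with 11750.0 and 842 in V3, 11935 and 729 in V1, and 12094 and 809 in V2a. Igf2, H19, Grb10 and Mest were lowest in V1 and between in V2a, the order of the mesenchyme list; the part of mesenchyme in these values was not tested.

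Retinoid genes went both ways. Of 16 measured, 2 were V3-enriched and 2 V3-depleted, against 5.06% and 1.95% of all measured genes. The transcript 1300002K09Rik, for which RefSeq gives Stra6l as a symbol, had 648 in V3, 54.2 in V1 and 54.5 in V2a. Rarg, a retinoic acid receptor, had 60.5 in V3, 11.8 in V1 and 20.8 in V2a. Crabp1, a retinoic acid binding protein, had 294 in V3, 3559 in V1 and 2210.1 in V2a, and Cyp26b1, which breaks down retinoic acid, had 17.9, 37.2 and 93.4.

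Of 19 contactins and related adhesion molecules, 2 (10.5%) were V3-enriched and 6 (31.6%) V3-depleted, against 5.06% and 1.95% of all measured genes. Cntn2 stood alone among the contactins in the first group. Cntn6 had 4.50 in V3, 77.9 in V1 and 52.5 in V2a, and Cntn3 had 17.8, 86.9 and 68.7.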
